A study of Mus musculus with 4 samples.

Results

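Epithelial lineage transcription factors were evaluated in basal cells and basal-derived luminal cells of the developing mouse prostate. The set holds 53 genes of the 49671 in the deposited table, drawn from the forkhead, Sox, Gata, Klf, Ets, grainyhead and Cp2, Ovol and Bcl11 zinc finger, T-box, Pax, Runx, COUP-TF and TALE homeobox families, and it was fixed as a list of gene names, without a threshold on any measured value. Both cell types came from the tip region of the prostate ducts of untreated CD-1 mice, with an age label of postnatal days 10 to 13. After cells with CD45, CD31 or CD140a on their surface had been removed, EpCAM-positive cells were sorted into a basal fraction with high CD49f and a luminal fraction with low CD49f. RNA-seq was performed on 2 libraries of each, which the labels number as replicates 1 and 3 of basal cells and as replicates 3 and 2 of luminal cells. According to the methods the tips were cut from the ventral lobes of several mice, and the labels do not say whether libraries came from separate animals, so p-values measure the spread between these libraries only, which may be technical.

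Lineage factors bind DNA next to genes of a cell identity and switch them on or off, often in combinations that differ between neighbouring cell types of 1 epithelium. Grainyhead and epithelium-specific Ets factors act on junction and secretory genes, forkhead factors of the Foxa group open chromatin for the androgen receptor in the prostate, and Sox and Klf factors act in stem and progenitor cells as well as in differentiation. In the prostate, basal cells line the base of the duct and luminal cells face its lumen and make the secretion, and during postnatal growth basal cells of the tips give rise to both.

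Values are normalized counts: reads on each gene scaled by the authors so that every library has the same total and rounded to whole numbers. They are listed throughout with basal replicates 1 and 3 before luminal replicates 3 and 2. Because low values were multiples of a fixed step, the number of reads behind each value could be recovered, and it came to 3194298 and 3082029 reads on genes in the basal libraries and 1036679 and 643271 in the luminal libraries. Both luminal libraries were shallower, so depth and cell type cannot be told apart, and 3 reads, taken as the limit of detection, correspond to a normalized count of 18.8, 19.5, 58.1 and 93.5. Nuclear protein-coding genes held 76.0% and 74.7% of the basal libraries and 57.3% and 64.2% of the luminal libraries, so this share also moved with cell type, and its part in the results was not tested. In bulk RNA, fewer cells of a type and less RNA per cell cannot be told apart.

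The sort was checked against marker genes. All 10 basal markers were lower in luminal cells by edgeR's quasi-likelihood test on recovered reads (adjusted p under 0.05, Benjamini-Hochberg over all genes tested, 2.71% of which were lower), among them Krt5, a basal keratin, at 18481 and 15824 against 77 and 93. Of 10 luminal markers 5 were higher, as were 2.37% of all genes, among them Krt8, a luminal keratin, at 3012 and 4287 against 13302 and 8320. Genes of the cells the gate should remove were also present, such as Pdgfra, which encodes CD140a, at 3307, 4144, 2575 and 8383. The summed level of 12 fibroblast and smooth muscle genes was 130909, 259661, 81198 and 257309, so that it differed more within each cell type than between them. Of these genes 10 overlapped between cell types, as did 9203 of all 18737 genes tested. The 1 called by edgeR was lower in luminal cells (2.71% of all genes), namely Dcn, a fibroblast proteoglycan. It was at 45830 and 47724 against 5770 and 20256 (adjusted p = 0.0393). Des went the other way without overlap, at 820 and 1715 against 3207 and 2834, and was not called (edgeR adjusted p = 0.089). The sums were 871 to 3538 for 11 immune genes, most of it Cd3e at 2173, 1462, 639 and 1807, with Ptprc, which encodes CD45, at 150, 6, 0 and 0, and 124 to 1038 for 8 glial and neuronal genes. Of the immune genes edgeR called 1 lower in luminal cells, Cd74, an antigen presentation gene, at 225 and 156 against 0 and 0 (adjusted p = 0.0445). The sum of 7 Wolffian duct and seminal vesicle genes was 6 and 26 in basal cells and 309 and 93 in luminal cells, and edgeR called 1 of them higher, Svs4, at 0 and 0 against 174 and 62 (adjusted p = 0.0224). The parts of these cells in the results below were not tested.

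Of the 53 factors, 46 passed a filter on low values (every library of at least 1 cell type at 10 or more, with an average of at least 20 there), as did 18737 genes in all. The main test, limma, called 0 of the 46 factors (0.694% of all genes). The factors called by edgeR on recovered reads were Spdef, Foxq1, Tfcp2l1 and Grhl1, which were higher than in basal cells, and Ets1, Bcl11a, Sox4, Foxo1 and Klf4, which were lower. Both libraries of 1 cell type were above both of the other for each of the 9. DESeq2 called the same 9, and with luminal replicate 3 left out edgeR called 3 of them, Bcl11a, Ets1 and Sox4. Over all genes kept, edgeR called 5.08% and DESeq2 4.37%, and edgeR called 1.89% without that library.

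The call depended on the test. With limma on log2(normalized count + 1), 0 of the 46 factors had an adjusted p under 0.05, against 0.694% of all genes tested, and the lowest adjusted p was 0.0637, of Grhl1. At an unadjusted p under 0.05 there were 19 factors, with 18.5% of all genes at that level. By edgeR 4 factors were higher in luminal cells, where 2.37% of all genes were, and 5 were lower, where 2.71% were; by DESeq2 the shares of all genes were 2.15% and 2.22%. An exact permutation of 2 libraries against 2 cannot give a two-sided p under 0.333.

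By size alone, 9 factors were at least 2-fold higher in luminal cells (18.3% of all genes) and 12 were at least 2-fold lower (16.3% of all genes), while 25 lay between. Both luminal libraries were above both basal libraries for 9 factors (23.6% of all genes), both basal libraries were above both luminal libraries for 21 (27.3% of all genes), and 16 overlapped. Elf5, Foxj1 and Pax8 were among the 9 in both counts. They rested on 2, 0, 6 and 1, on 1, 3, 2 and 1, and on 0, 1, 1 and 1 reads. A single read had a value of 6.26, 6.49, 19.4 and 31.2. The filter was thus passed on fewer reads in luminal than in basal libraries, by factors and by all genes. The median luminal minus basal difference of the 46 factors was -0.53 on the log2 scale, beside -0.10 for all genes kept, and it was -0.37 with Bcl11b, which had no reads in either luminal library, set to 3 reads there. Among the 41 factors with an average of 100 or more, 6 were 2-fold higher (14.6%) and 11 were 2-fold lower (26.8%), compared with 11.4% and 12.8% of the 12544 genes at that level. Scaling to the total of nuclear protein-coding genes moved the median of all genes to 0.21 and that of the factors to -0.22.

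**Figure D1:**
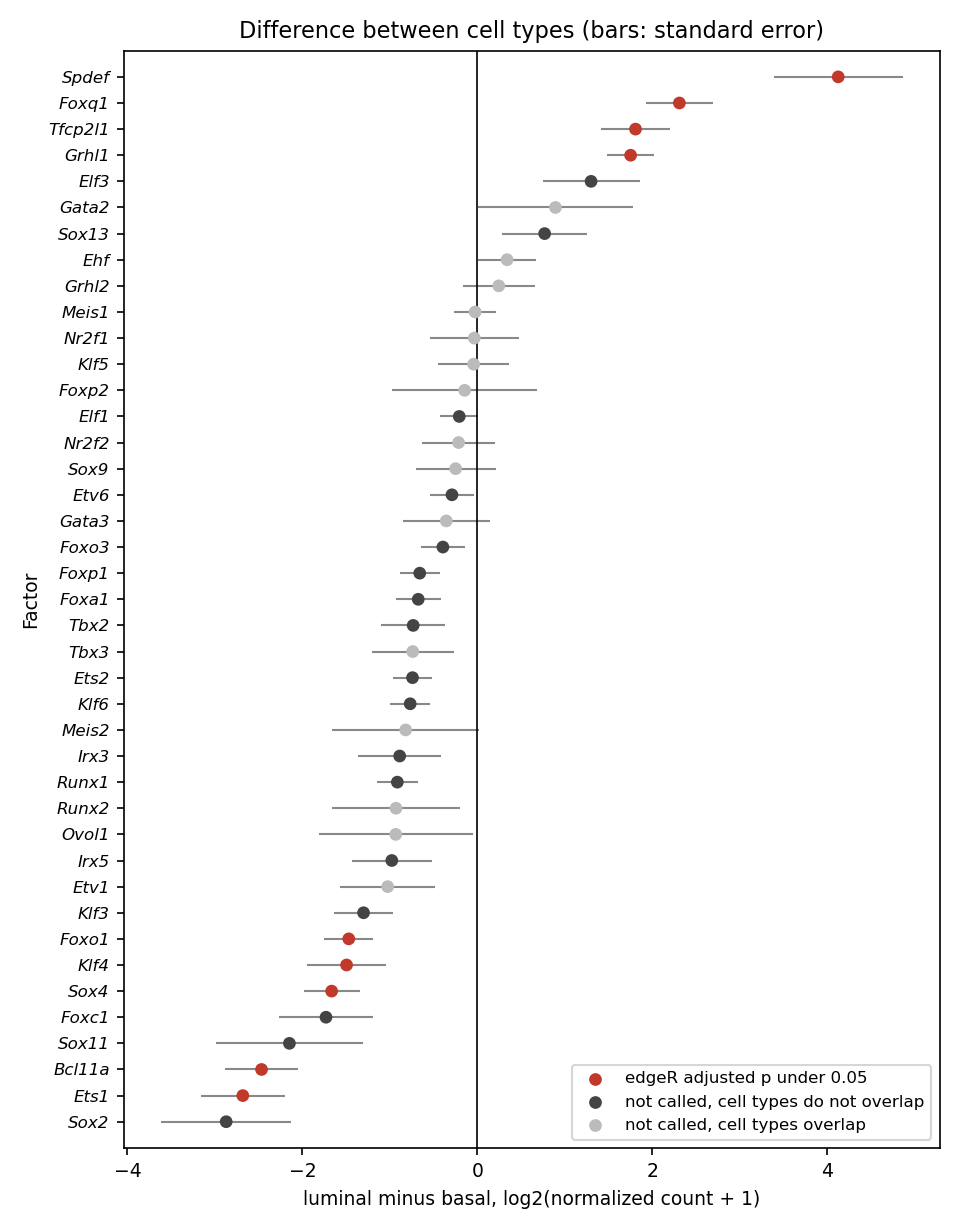
Luminal minus basal difference in log2(normalized count + 1) for the 41 factors with an average of 100 or more (points), with limma's standard error (bars), n = 2 libraries per cell type. Red points had an edgeR adjusted p under 0.05, dark points were not called but had libraries that did not overlap between cell types, and pale points overlapped; the 4 red points on the right are Spdef, Foxq1, Tfcp2l1 and Grhl1 and the 5 on the left are Ets1, Bcl11a, Sox4, Klf4 and Foxo1.

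To show the regulatory DNA beside the values, the stretch just upstream of the RefSeq transcription start is printed for 3 factors that were higher in luminal cells and 2 that were lower. Each runs 5′ to 3′ on the gene's strand in build GRCm38.p6 and stops before the first annotated exon. The windows are chr17:27728956-27729201 (minus strand) for Spdef, chr12:24572037-24572282 (plus strand) for Grhl1, chr1:118627695-118627944 (plus strand) for Tfcp2l1, chr11:24080445-24080669 (plus strand) for Bcl11a and chr13:28953714-28953949 (minus strand) for Sox4. The Bcl11a window lies in an intron of longer transcripts of that gene. Capitals mark matches to the GC box GGGCGG on either strand.
Spdef: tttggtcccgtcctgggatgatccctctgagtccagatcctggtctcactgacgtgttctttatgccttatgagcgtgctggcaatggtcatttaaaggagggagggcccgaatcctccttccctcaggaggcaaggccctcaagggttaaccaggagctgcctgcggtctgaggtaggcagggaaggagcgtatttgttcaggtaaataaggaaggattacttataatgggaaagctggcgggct
Grhl1: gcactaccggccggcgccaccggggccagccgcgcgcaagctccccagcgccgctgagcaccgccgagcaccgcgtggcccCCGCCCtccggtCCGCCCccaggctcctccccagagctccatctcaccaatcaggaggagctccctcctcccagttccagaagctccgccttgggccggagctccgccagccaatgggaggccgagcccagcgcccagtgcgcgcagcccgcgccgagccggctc
Tfcp2l1: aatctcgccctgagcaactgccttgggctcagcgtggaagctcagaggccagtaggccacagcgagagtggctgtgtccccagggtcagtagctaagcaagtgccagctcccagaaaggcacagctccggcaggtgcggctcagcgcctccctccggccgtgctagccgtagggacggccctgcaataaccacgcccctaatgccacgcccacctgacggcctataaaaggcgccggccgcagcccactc
Bcl11a: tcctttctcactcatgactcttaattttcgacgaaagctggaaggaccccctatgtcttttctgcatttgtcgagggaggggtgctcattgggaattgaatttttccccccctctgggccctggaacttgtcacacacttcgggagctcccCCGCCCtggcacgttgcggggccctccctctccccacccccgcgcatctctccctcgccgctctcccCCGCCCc
Sox4: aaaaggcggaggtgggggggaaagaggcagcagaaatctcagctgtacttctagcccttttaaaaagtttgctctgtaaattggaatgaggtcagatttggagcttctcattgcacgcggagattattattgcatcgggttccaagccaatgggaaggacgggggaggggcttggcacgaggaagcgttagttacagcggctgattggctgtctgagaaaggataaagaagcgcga

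The GC box occurred 2 times upstream of Grhl1 and 2 times upstream of Bcl11a, and not in the other windows. It was present in 32.7% of all 32851 RefSeq promoters over 250 upstream bases and in 26 of the 52 promoters (50%) of the 39 factors that the table held. Searches on both strands for the Ets core CCGGAA (12% of all promoters), the forkhead motif TGTTTAC (3.17%) and the grainyhead motif AACCGGTT (0.116%) gave no match in the 5 windows, which says only that these letters are not in them. No motif overlapped another. The base composition ran from 50% GC upstream of Sox4 to 76.0% upstream of Grhl1, with 53.3% for Spdef, 60.4% for Bcl11a and 65.2% for Tfcp2l1. Among the 52 promoters of the factors, 6 held the Ets core (11.5%), 2 the forkhead motif (3.85%) and 0 the grainyhead motif.

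The grainyhead and Cp2 family was led by 2 factors that were higher in luminal cells. Grhl1 (chr12:24572283-24617391), which acts on desmosomal genes, had normalized counts of 651 and 572 in basal cells and of 2265 and 1870 in luminal cells. The libraries of each cell type lay close together and far from those of the other. The ratio of averages was 3.38, the log2 difference 1.75 ± 0.26 (SE, n = 2 per cell type) and the adjusted p 0.00795 by edgeR (0.0784 without luminal replicate 3) and 0.0637 by limma. Tfcp2l1 (chr1:118627945-118685168), a Cp2 factor known from kidney ducts and pluripotent cells, had 983 and 559 in basal cells and 3234 and 2088 in luminal cells. Again no library overlapped, although replicates of a cell type differed more than for Grhl1. The averages differed 3.45-fold, with a log2 difference of 1.81 ± 0.39, an edgeR adjusted p of 0.0133 (0.155 without luminal replicate 3) and a limma adjusted p of 0.0744.

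Grhl2, which maintains epithelial junctions, did not follow Grhl1. It had 2680 and 1403 in basal cells and 2924 and 1807 in luminal cells, so the cell types overlapped (log2 difference 0.25 ± 0.41, limma adjusted p = 0.767). Per kilobase of exon, Grhl1 made up 27.1% and 38.5% of the summed level of Grhl1, Grhl2 and Grhl3 in the basal libraries and 53.6% and 61.7% in the luminal libraries. Grhl2 took most of the rest, from 71.8% in basal replicate 1 to 38.3% in luminal replicate 2. Grhl2 was thus the larger part in both basal libraries and Grhl1 in both luminal libraries. Grhl3 rested on 2 reads or fewer in every library and did not pass the filter.

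**Figure D2:**
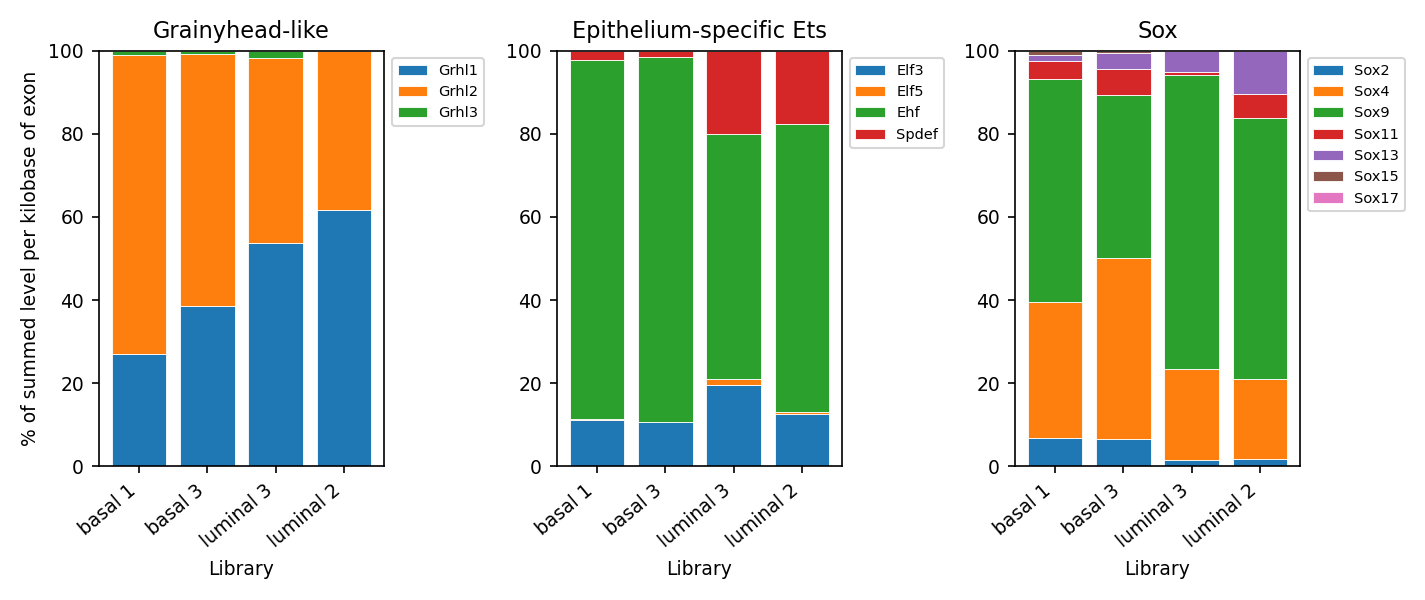
Shares of the summed level per kilobase of exon within the grainyhead-like, epithelium-specific Ets and Sox groups (y axis, %) in each of the 4 libraries (x axis); each bar adds up to 100%. Grhl1 fills 27.1% and 38.5% of the basal bars and 53.6% and 61.7% of the luminal bars, Spdef 2.15% and 1.51% against 20.03% and 17.7%, and Sox4 32.8% and 43.4% against 21.9% and 19.3%.

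The Ets family held the factor with the largest positive difference of the 46 tested and the called factor with the largest negative one. Spdef (chr17:27714352-27728955), an Ets factor of prostate and other secretory epithelia, had normalized counts of 50 and 19 in basal cells and of 620 and 499 in luminal cells. Luminal libraries were thus far above the basal ones. These values rest on 8 and 3 reads in basal cells and 32 and 16 in luminal cells, and the ratio of pooled read rates was 16.3, with an exact 95% interval for counting error alone of 8.35 to 34.8. The log2 difference was 4.12 ± 0.74, and it ranged from 3.45 without basal replicate 3 to 4.80 without basal replicate 1. Its adjusted p was 0.00376 by edgeR (0.0651 without luminal replicate 3) and 0.0688 by limma.

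Ets1 (chr9:32636221-32757820), a factor of endothelial and lymphoid cells and of migrating epithelium, had the opposite pattern. Normalized counts were 2743 and 5145 in basal cells and 407 and 841 in luminal cells, with no overlap. Basal cells averaged 6.32 times the luminal level, and the log2 difference was -2.68 ± 0.48. The edgeR adjusted p was 0.00362, and it stayed under 0.05 when each library was left out in turn, at most 0.0475 without luminal replicate 3; the limma adjusted p was 0.0688. Beside this result, the summed level of 10 endothelial markers was 1861 and 1798 in basal cells and 755 and 1869 in luminal cells, with Cdh5 at 0 in luminal replicate 3 and Egfl7 at 0 in both luminal libraries. Within the list Pecam1 was at 833 and 637 against 174 and 499, Kdr at 257 and 273 against 213 and 93, and Emcn at 113 and 357 against 39 and 592. Tek went the other way, at 75 and 71 against 155 and 312. Of the 9 endothelial markers that passed the filter 5 overlapped between cell types, as did 9203 of all 18737 genes kept. The number called was 0 by edgeR, DESeq2 and limma (5.08%, 4.37% and 0.694% of all genes). At an unadjusted limma p under 0.05 there was 1 (18.5% of all genes). The part of endothelial cells in the Ets1 difference was not tested.

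Ets2, the closest relative of Ets1 in the set, differed less. It had 15682 and 13914 in basal cells and 9352 and 8352 in luminal cells, without overlap (1.67-fold, log2 difference -0.74 ± 0.22, edgeR adjusted p = 0.197). Per kilobase, Ets1 was 10.7% and 20.1% of the sum of both in basal cells and 2.88% and 6.43% in luminal cells.

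Among the other epithelium-specific Ets factors, Elf3, which acts in barrier and glandular epithelia, had 251 and 130 in basal cells and 581 and 343 in luminal cells. Its libraries did not overlap, but the difference did not pass any of the 3 tests (2.43-fold, log2 difference 1.30 ± 0.55, edgeR adjusted p = 0.202). Ehf, which restrains mesenchymal genes in prostate epithelium, was the most abundant of the group per kilobase in every library. It had 4866 and 2663 in basal cells and 4415 and 4706 in luminal cells (log2 difference 0.34 ± 0.33, limma adjusted p = 0.605), and its share of the group was 86.4% and 87.7% in basal cells and 59.0% and 69.2% in luminal cells. Spdef made up 2.15% and 1.51% of the group in basal cells and 20.03% and 17.7% in luminal cells. Elf5, known from mammary alveolar cells, rested on 2, 0, 6 and 1 reads.

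The remaining Ets factors were not called. Etv1, a target of growth factor signalling, had 633 and 1410 in basal cells and 329 and 654 in luminal cells, so basal replicate 1 lay within the luminal range. Etv6, a repressor, differed by -0.29 ± 0.25 and Elf1 by -0.21 ± 0.22 on the log2 scale, and both turned positive, to 0.02 and 0.10, when counts were scaled to nuclear protein-coding genes. Erg, an endothelial Ets factor, had 6 reads in basal replicate 1, 1 in luminal replicate 2 and none in the others, and did not pass the filter.

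Of the Ovol and Bcl11 zinc finger factors, Bcl11a was called lower in luminal cells. Bcl11a (chr11:24078056-24174123), a repressor known from blood and mammary cells, had normalized counts of 2511 and 1325 in basal cells and of 387 and 280 in luminal cells. The lower basal library was still well above the higher luminal one. Averages differed 5.75-fold, the log2 difference was -2.47 ± 0.41, and the adjusted p was 0.00538 by edgeR, 0.00105 by DESeq2 and 0.0673 by limma. The edgeR call held when each library was left out, with an adjusted p of at most 0.0303. Bcl11b, its paralogue in skin and mammary basal cells, had 94 and 58 in basal cells (15 and 9 reads) and 0 in both luminal libraries. Since 3 reads in the luminal libraries would correspond to 58.1 and 93.5, a fold is not given, and edgeR did not call it (adjusted p = 0.147). Ovol1, a repressor of mesenchymal genes, had 338 and 1111 against 658 and 156, so both cell types spanned a wide range, and Ovol2 rested on 6, 1, 1 and 0 reads.

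Sox factors differed among themselves. Sox4 (chr13:28948919-28953713), a progenitor factor in many epithelia, had normalized counts of 3783 and 3079 in basal cells and of 1375 and 841 in luminal cells. There was no overlap, and basal cells averaged 3.1 times the luminal level (log2 difference -1.67 ± 0.32). Its adjusted p was 0.0197 by edgeR (0.0609 without luminal replicate 2) and 0.0705 by limma. Sox2, a stem cell factor found in some prostate basal cells, had 338 and 201 in basal cells and 39 and 31 in luminal cells. The luminal values rest on 2 reads and 1 read, compared with 54 and 31 in basal cells, and the ratio of pooled luminal to basal read rates was 0.132 (exact 95% interval for counting error 0.0267 to 0.399). The difference was not called by edgeR (adjusted p = 0.0848). Sox11, a factor of embryonic progenitors, had 864 and 773 in basal cells and 77 and 436 in luminal cells, and its log2 difference moved from -3.39 without luminal replicate 2 to -0.90 without luminal replicate 3.

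Sox9, which is needed for prostate budding, had the largest per-kilobase level of the group in 3 libraries and the second largest in basal replicate 3. It had 5330 and 2403 in basal cells and 3834 and 2368 in luminal cells, and the cell types overlapped (log2 difference -0.25 ± 0.46). As a share of the summed Sox level it was 53.5% and 39.3% in basal cells and 70.8% and 63.0% in luminal cells, whereas Sox4 was 32.8% and 43.4% in basal cells and 21.9% and 19.3% in luminal cells. Sox13 had 163 and 247 against 290 and 405, without overlap, and was not called (edgeR adjusted p = 0.512). Sox15 and Sox17 had 4 reads and 1 read in all and did not pass the filter.

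Among forkhead factors, Foxq1 (chr13:31556134-31560976), which has been studied in hair follicles and mucous epithelium, was higher in luminal cells. Its normalized counts were 294 and 344 in basal cells and 2110 and 1184 in luminal cells. The basal libraries lay close together and both luminal libraries were well above them. Averages differed 5.16-fold (log2 difference 2.31 ± 0.38), with an adjusted p of 0.00459 by edgeR (0.0808 without luminal replicate 3), 0.000411 by DESeq2 and 0.0664 by limma. Foxo1 (chr3:52268336-52353221), which insulin and PI3K signalling hold out of the nucleus, was lower in luminal cells. It had 4240 and 3157 in basal cells and 1142 and 1527 in luminal cells, a 2.77-fold difference (log2 -1.47 ± 0.28). The edgeR adjusted p was 0.0183, rising to 0.0901 when basal replicate 1 was left out and to 0.104 when luminal replicate 3 was. Foxo3, regulated in the same way, had 4371 and 3852 against 3640 and 2680 (log2 difference -0.39 ± 0.25), and the share of Foxo1 in the per-kilobase sum of both was 45.9% and 41.7% in basal cells and 21.5% and 33.2% in luminal cells.

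Foxa1, the pioneer factor for the androgen receptor, was abundant in both cell types. It had 10177 and 7600 in basal cells and 6157 and 4924 in luminal cells, so that both basal libraries were above both luminal ones, by 1.6-fold on average (log2 difference -0.68 ± 0.26, edgeR adjusted p = 0.265). Foxa1 supplied 99.1% to 100% of the per-kilobase sum of Foxa1 and Foxa2 in every library, and Foxa2 had at most 1 read per library. Foxp1, a repressor, differed by a similar amount, with 6306 and 5086 against 3756 and 3428 (log2 difference -0.66 ± 0.23, edgeR adjusted p = 0.252). Foxc1, a factor of mesenchyme and some basal epithelia, had 1434 and 1169 in basal cells and 232 and 654 in luminal cells. Its libraries did not overlap and its averages differed 2.94-fold, with an edgeR adjusted p of 0.0645. Leaving out 1 library gave 0.0439 (basal replicate 3) and 0.0168 (luminal replicate 2), but 0.114 (basal replicate 1) and 0.303 (luminal replicate 3), and the limma log2 difference of -1.73 ± 0.54 moved to -2.48 and -0.98 with only luminal replicate 3 or only luminal replicate 2 kept. Foxp2 had 269 and 617 against 174 and 779. Foxj1, the regulator of multiciliated cells, rested on 1, 3, 2 and 1 reads, and Foxi1, the regulator of ionocytes, was at 0 in all 4 libraries.

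**Figure D3:**
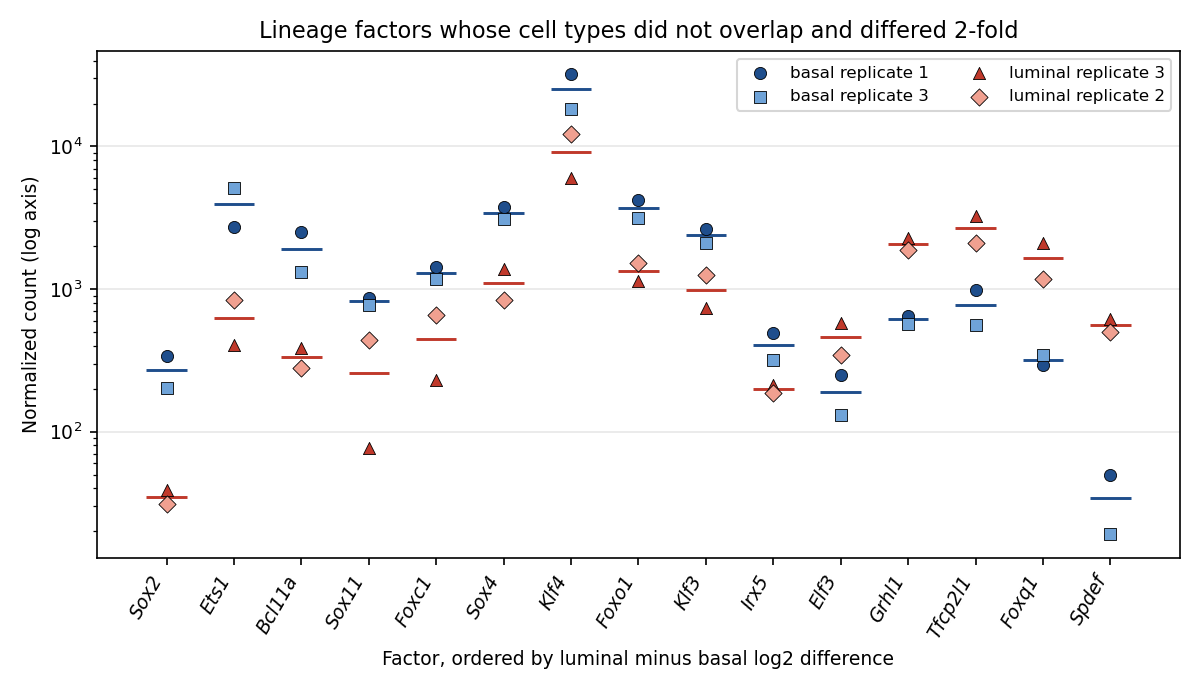
Normalized counts (log axis) in each library for the 15 factors that passed the 2-fold rule, had no overlap between cell types and averaged 100 or more, ordered by their log2 difference; circles and squares are basal replicates, triangles and diamonds luminal replicates, and lines are the averages of each cell type. The 10 factors on the left, from Sox2 to Irx5, have both basal points above both luminal points, and the 5 on the right, from Elf3 to Spdef, the reverse.

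Klf4 and Klf6 had the highest levels per kilobase of the whole set in every library. Klf4 (chr4:55527143-55532466), which acts in differentiating epithelia and in pluripotent cells, had 32321 and 18169 in basal cells and 6022 and 12278 in luminal cells. Both luminal libraries were below both basal ones, although on a log scale each pair spanned more than the gap between the pairs. The averages differed 2.76-fold, the log2 difference was -1.49 ± 0.46, and the adjusted p was 0.0477 by edgeR, 0.0349 by DESeq2 and 0.169 by limma. When basal replicate 1 was left out the edgeR adjusted p was 0.217, and when luminal replicate 3 was left out it was 0.203. Klf6, an early response gene in epithelium and stroma, had 27913 and 27808 in basal cells and 16129 and 16610 in luminal cells. Replicates of Klf6 lay closer together than those of any other Klf member, and its 1.7-fold difference was not called (log2 -0.77 ± 0.23, edgeR adjusted p = 0.18). Per kilobase, Klf4 made up 31.3%, 22.4%, 11.1% and 21.4% of the sum of all 53 factors and Klf6 18.8%, 23.8%, 20.6% and 20.1%.

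Klf3, a repressor, had 2649 and 2105 in basal cells and 736 and 1247 in luminal cells, without overlap (2.4-fold, edgeR adjusted p = 0.0566, and 0.0322 to 0.259 when 1 library was left out). Klf5, which acts in basal progenitors and in gut crypts, had 2612 and 5158 in basal cells and 4434 and 2867 in luminal cells. The ranges of Klf5 overlapped fully, and its log2 difference was -0.04 ± 0.41.

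Gata, Runx and T-box factors were not called by any of the 3 tests. Gata3, a factor of mammary luminal cells that is also present in the prostate, had 2586 and 1429 in basal cells and 2265 and 997 in luminal cells. Gata2, a partner of the androgen receptor, had 157 and 403 in basal cells and 213 and 1028 in luminal cells, so that its 2.22-fold higher luminal average rested on luminal replicate 2. Per kilobase, Gata3 was 94.9% and 80.4% of the Gata sum in basal cells and 93.1% and 54.5% in luminal cells. Gata6 had 6, 13, 1 and 4 reads. Runx1, a factor of blood and of hair follicle stem cells, had 5511 and 7282 in basal cells and 3388 and 3334 in luminal cells, without overlap (1.9-fold, log2 difference -0.91 ± 0.24, edgeR adjusted p = 0.116). Runx2, a bone factor, had 864 and 526 against 174 and 717.

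T-box repressors differed by similar amounts. Tbx2 had 601 and 500 in basal cells and 290 and 374 in luminal cells, without overlap (log2 difference -0.73 ± 0.37), and Tbx3 had 5718 and 3449 against 1762 and 4020, with overlap (-0.74 ± 0.47). Neither was called by edgeR, with adjusted p of 0.403 and 0.367. Pax8, a kidney and thyroid factor, had at most 1 read in each library.

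No homeobox or COUP-TF factor was called by any of the 3 tests. Meis1, a Hox partner, had 1591 and 1598 in basal cells and 1433 and 1714 in luminal cells, a log2 difference of -0.02 ± 0.24. Meis2 had 1472 and 2306 against 426 and 2555, a 6.0-fold spread between the luminal libraries. For the Iroquois factors Irx3 and Irx5, both luminal libraries were below both basal ones. Irx5 had 488 and 318 against 213 and 187 (2.02-fold, edgeR adjusted p = 0.354), and Irx3 had 401 and 279 against 174 and 187 (1.88-fold, edgeR adjusted p = 0.431). The orphan receptors Nr2f1 and Nr2f2, which are prominent in mesenchyme, had 326 and 299 against 213 and 436, and 1822 and 1591 against 987 and 2181.

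The luminal libraries differed from each other for some of the factors, and for other genes as well. Of the 41 with an average of 100 or more, 11 were at least 2-fold higher in luminal replicate 2 than in luminal replicate 3, namely Meis2, Gata2, Sox11, Foxp2, Runx2, Foxc1, Tbx3, Nr2f2, Nr2f1, Ets1 and Klf4, and 2 were at or below 0.5 times, Gata3 and Ovol1. Among all 12544 genes at that average the shares were 15.9% and 10.9%, beside 26.8% and 4.88% of the factors. Between the basal libraries 2 were at least 2-fold higher in replicate 1 (8.71% of all genes) and 4 were at least 2-fold higher in replicate 3 (7.49% of all genes). The fibroblast and smooth muscle sum was 257309 in luminal replicate 2 and 81198 in luminal replicate 3, for example with Myh11, a smooth muscle myosin, at 21907 and 1413. Its part in these values was not tested. Luminal replicate 3 was the lowest of the 4 libraries for 18 of the 41 factors (34.4% of all genes) and luminal replicate 2 for 13 (25.7% of all genes).

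**Figure D4:**
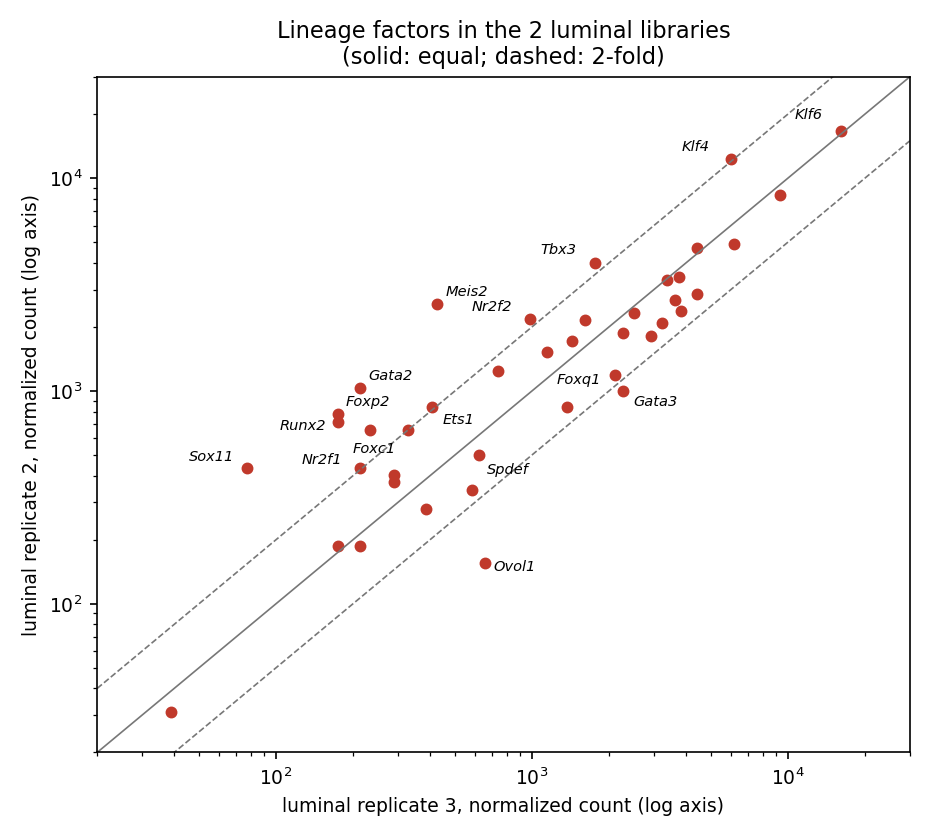
Normalized counts of the 41 factors with an average of 100 or more in luminal replicate 3 (x, log axis) and luminal replicate 2 (y, log axis); the solid line marks equal values and the dashed lines a 2-fold difference. Meis2, Gata2, Foxp2, Runx2 and Sox11 lie well above the upper line, and Ovol1 and Gata3 below the lower line.

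Other genes of the same families were counted in the same fits, over 112 protein-coding genes of which 60 passed the filter. None was higher in luminal cells by edgeR, and 2 were lower, Sox6 and Etv4, beside shares of 2.37% and 2.71% of all genes. Sox6, a partner of Sox5 in cartilage and muscle, had 1941 and 1916 in basal cells and 77 and 31 in luminal cells, and was the 1 gene of the 60 that limma called (adjusted p = 0.041, edgeR 0.00021). Its luminal values rest on 4 reads and 1 read, and the ratio of pooled luminal to basal read rates was 0.0309 (exact 95% interval for counting error 0.00999 to 0.0725). Etv4, an Ets factor induced by fibroblast growth factor signalling, had 651 and 838 in basal cells and 19 and 31 in luminal cells, 1 read each, with a rate ratio of 0.0321 (0.00386 to 0.117) and an edgeR adjusted p of 0.00162. Its relative Etv5 had 814 and 565 against 232 and 156 and was not called (edgeR adjusted p = 0.0606). By the 2-fold rule 1 of the 60 was higher and 18 were lower, beside 18.3% and 16.3% of all genes. The 1 higher gene, Foxs1, rested on 0, 2, 2 and 1 reads. Several of the lower ones passed the filter through basal cells only and lacked reads in a luminal library. Examples are Foxd3 with 2, 8, 0 and 0 reads, Pax6 with 4, 6, 0 and 1 and Sox21 with 21, 12, 0 and 1. For these, luminal depth and cell type cannot be told apart.

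Gene lists that the factors are known to act on were read out beside them. Of 12 adhesion and barrier genes of epithelium, 8 were at least 2-fold higher in luminal cells (18.3% of all genes), 0 were 2-fold lower (16.3% of all genes), and edgeR called 3 higher (2.37% of all genes). Epcam, the surface protein used in the sort, had 2355 and 3683 in basal cells and 9081 and 6170 in luminal cells, and Cldn7, a claudin, had 194 and 214 against 987 and 810 (edgeR adjusted p = 0.0453 and 0.0101). Tjp3, a tight junction scaffold, had 138 and 130 against 891 and 561 (0.0106). Of 8 mesenchymal transcription factors 2 were at least 2-fold higher (18.3% of all genes) and 2 at least 2-fold lower (16.3%) in luminal cells. Snai1 was among the higher ones but overlapped, at 50, 45, 39 and 249 (8, 7, 2 and 8 reads). The 1 called by edgeR was Snai2, which was lower (2.71% of all genes), at 1791 and 2046 against 39 and 218 (adjusted p = 0.00129). Prrx1, at 996 and 1280 against 3455 and 1754, and Zeb2, at 971 and 2202 against 2509 and 3507, were not called. For both, the luminal libraries were above the basal ones (23.6% of all genes). Whether Grhl1, Spdef or any other factor bears on these genes was not tested.

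Cell types that some of the sparse factors define were also looked for. Of 14 genes of multiciliated cells, the cell type of Foxj1, 9 passed the filter and edgeR called 1 higher (2.37% of all genes), Dnah11, a dynein heavy chain, at 514 and 448 in basal cells and 6641 and 2960 in luminal cells (adjusted p = 0.00071). By the 2-fold rule 4 of the 9 were higher and 1 was lower (18.3% and 16.3% of all genes). The lower one, Cfap43, had 758 and 1072 against 310 and 592, without overlap, and was not called (edgeR adjusted p = 0.213). Ccno was present in every library, at 301, 260, 174 and 343. Mcidas, Rsph1 and Tekt1 had 1 read at most and Hydin none. Of 10 genes of ionocytes, the cell type of Foxi1, 3 passed and edgeR called 1 higher (2.37% of all genes), Slc26a4, an anion exchanger, at 0 and 6 against 484 and 779 (adjusted p = 0.000728), while Atp6v0d2 and Atp6v1g3 were at 0 in all libraries. Chga, a secretory granule protein of neuroendocrine cells, was at 213 in luminal replicate 3, at 0 in luminal replicate 2 and at 19 and 13 in basal cells.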

How the data were processed

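The libraries analysed were 2 of tip basal cells and 2 of basal-derived luminal cells, grouped by their labels. The authors mapped reads with STAR to GRCm38 (mm10), counted genes of Ensembl's annotation with HTSeq, brought every library to the same number of aligned reads, rounded the values to whole numbers and deposited this normalized count, a signal without a unit of its own; Picard is named in the submitters' processing notes. Duplicate removal and the use of strand are not given in the sources used here, so genes with an antisense or overlapping partner may share reads. All sample columns were mapped (0 left out). Symbols, coordinates and merged exon lengths came from GENCODE M21 (GRCm38), which held 49412 of 49671 gene IDs; 21799 genes were at 0 in all libraries.

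Whole reads were recovered from the step between low values (6.26, 6.49, 19.4 and 31.2 per read; values up to 40 reads, tolerance 0.1 read; 97.7% to 98.9% of low values fitted). Another step held for 494 genes, none of them a lineage factor (0 of 53). limma 3.58.1 with a trended prior was fitted to log2(normalized count + 1) of all 18737 genes kept, and edgeR 4.0.16 and DESeq2 1.42.0 to the recovered reads (R 4.3.3, Python 3.11.15, scipy 1.17.1). Fold calls used ratios of group averages of at least 2 or at most 0.5, as in the study's methods, which apply no test. The limma, edgeR and DESeq2 fits on all 4 libraries were run on simulated counts with a single common dispersion, with direction and median error as criteria. The other alternatives were not simulated. Levels of lineage factors were compared between genes only per kilobase of exon, whereas sums of marker lists used normalized counts without regard to exon length. Intervals and detection limits cover counting error only, at a confidence level of 95%. Promoters came from RefSeq (GRCm38.p6), which matched 39 of the 53 factors.

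Members and lists were chosen with earlier results of these data known. Values per library were given for every factor past the 2-fold rule without overlap and with an average of at least 100, and for members of a family set beside them; genes of other lists were named for abundance or because edgeR called them, and Foxj1, Foxi1 and sparse markers were singled out after their values were seen. Alternatives changed the filter, pseudocount (5, 20), scaling, test, fold threshold (4) and libraries.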

Additional observations from a re-analysis of the deposited data

How the results depend on the processing

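The number of lineage factors called depended on the test and the handling of low counts. limma called 0 of 46 and still 0 after median-ratio scaling, scaling to nuclear protein-coding genes or without a filter, but 5 with a pseudocount of 5 (2.23% of all genes), 8 with a pseudocount of 20 (3.38%), 7 at an average of 100 or more (4.25%), 8 when both cell types had to pass the filter (4.53%), 1 without a trended prior (Bcl11b, 2.9%), 1 after quantile normalization (Grhl1, 2.03%), and 9 by edgeR or DESeq2 (5.08% and 4.37%). Leaving out each library gave 0 to 1 limma calls and, in an alternative chosen after seeing the data, 3 to 12 edgeR calls (1.89% to 5.62% of all genes); the 3 without luminal replicate 3 were Bcl11a, Ets1 and Sox4, and a lone library is then assumed to vary like the other cell type. At a 4-fold threshold 4 factors were higher and 4 lower. The 2-fold counts otherwise ranged from 6 to 11 higher and from 9 to 16 lower, and the median log2 difference from -0.68 to -0.22. The 15 factors past the 2-fold rule without overlap kept their direction under the alternatives, which that choice largely fixes; among the others, differences near 0 changed sign, such as Meis1, from -0.02 to 0.28 after scaling to nuclear protein-coding genes, and Grhl2, from 0.25 to -0.22 with 1 library left out. No paired analysis was possible because the cell types share only replicate number 3. The luminal depth limits factors under a normalized count of about 58.1 to 93.5 (3 reads).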
